A study of Gallus gallus with 21 samples.

Results

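The comparison described here set 7 retinal RNA-seq libraries from chickens that had worn a lens for 3 days against 7 libraries from chickens that had worn it for 1 day. These 14 libraries, chosen by the duration in their titles, were part of a series of 21, and the remaining 7 came from birds after 6 days. All birds were wild-type White Leghorn chickens fitted at 3 days of age with a lens of −10 dioptres, and no retina from a bird without a lens was analysed here. The birds measured after 3 days of wear were therefore also older than those measured after 1 day, so lens wear and age cannot be told apart. The titles carry code numbers and the letters R or L that the labels do not explain, and the labels give no hour of collection, sex or batch. Code numbers ran from 1 to 14 after 1 day and from 25 to 39 after 3 days. A difference in hour or batch between the days therefore cannot be told apart from lens wear. The labels do not say that each library is a separate bird either, so the p-values below measure the spread between these libraries.

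A negative lens focuses the image behind the retina, and the growing chick eye answers by elongating, which is the basis of lens-induced myopia. The retina detects the defocus and is the start of the signalling chain that reaches the choroid and the sclera. The chick retina also holds a circadian clock in its photoreceptors and inner neurons, which drives daily rhythms in melatonin synthesis, dopamine release and the expression of photoreceptor genes. In that clock, ARNTL (BMAL1) pairs with CLOCK or NPAS2 to switch on genes that include the period and cryptochrome repressors.

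Expression is given in CPM, the authors' normalised unit, in which read counts are scaled to the total of their library and not to gene length. The 14 libraries had an estimated 30.9 to 49.3 M reads each. The listed genes held 30.3% to 32.2% of the CPM total, an estimated 9.94 to 15.3 M reads. Numbers of detected genes and summed retinal markers overlapped between days. Of 13 retinal markers listed, 12 were at 1 CPM or more in all 14 libraries. The 8 markers of retinal pigment epithelium summed to 13.7 to 19.2 CPM after 3 days and 13.1 to 22.8 CPM after 1 day. Most of that sum was OCA2, at 11.02 to 14.2 CPM after 3 days and 9.86 to 12.5 CPM after 1 day. BEST1, TYR, PMEL and MLANA reached at most 0.49 CPM. The 4 markers of vessels and pecten summed to 41.7 to 57.8 CPM after 3 days and 51.1 to 62.4 CPM after 1 day. Nearly all of this was KDR and PECAM1, while CDH5 and TEK reached at most 0.92 CPM. The sums for lens (6 markers), microglia (4) and sclera and choroid (4) stayed under 6 CPM in every library of both days, and the 1 blood gene listed, SLC4A1, the red cell anion exchanger, was at 0 in all 14 libraries. HINTW, a gene of the female-specific W chromosome, was above 10 CPM in 1 of 7 libraries after 3 days (replicate 4) and in 4 of 7 after 1 day (replicates 1, 2, 3 and 6). The days thus differed in the number of libraries with W transcripts, and presence of W transcripts was a term of the fit (the sex term).

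After 3 days of lens wear, 438 of 11072 genes tested differed from 1 day, which is 3.96% (limma, Benjamini-Hochberg adjusted p under 0.05 over all genes tested). Of these, 203 genes (1.83%) rose and 235 (2.12%) fell. The changes were small: the median absolute log2 difference of the called genes was 0.36, 54 genes differed by 1.5-fold or more, and 5 differed by 2-fold or more. Those 5, named after their values were seen, were RBP4, EGR1 and the mitochondrial carrier gene SLC25A4, which fell, and the uncharacterised genes LOC101749116 and LOC112532456, which rose. All 7 libraries after 3 days lay above all 7 after 1 day for 81 of the 203 risen genes, where 0.876% of all tested genes had that pattern, and below them for 62 of the 235 fallen genes, where 0.668% of all tested genes had it. Differences below are in log2(CPM + 1), 3 days minus 1 day, with the standard error, and a scale with 1 added understates the change of low genes. Means in CPM carry the SD over 7 libraries a day.

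Clock activators that passed rose, and clock repressors that passed fell with 1 exception. With no hour of collection given, a difference in hour between the days cannot be told apart from lens wear. Of 8 clock activators tested, 3 rose and none fell, and of 13 clock repressors tested, 6 fell and 1 rose. Passing or not, 5 of the 8 activators and 3 of the 13 repressors had a log2 difference above 0. The median difference was 0.10 for the activators and −0.33 for the repressors, against −0.00087 over all tested genes. Leaving out 1 library gave 3 activator rises and 5 to 6 repressor falls. With only the 14 libraries of these days in the fit, 4 repressors fell (median −0.33). With only libraries lacking W transcripts, a fit of fewer libraries, 2 fell (median −0.33). Against only the day 1 code numbers 12 to 14, 3 fell (median −0.21), and against only 1 to 4, 7 fell (median −0.38). The activators had 3 rises in each of these fits, with 1 fall against only 1 to 4. Over all tested genes 1.83% rose and 2.12% fell, the shares to set beside the counts of this and every later list. The lists were chosen with earlier results of these data known.

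ARNTL (chromosome 5, 7819805 to 7864577 in GRCg6a, the build of all positions given here), the partner of CLOCK in the activating complex, ran from 33.4 to 47.4 CPM (median 39.98) after 3 days and 18.8 to 30.1 CPM (median 27.04) after 1 day. Every library after 3 days was above every library after 1 day. The log2 difference was 0.77 ± 0.08 (adjusted p = 2.42e-05), and ARNTL passed the test in all 27 alternative settings. Its paralogue ARNTL2 (chromosome 1, 68130352 to 68167203) averaged 64.9 ± 9.11 CPM after 3 days and 46.2 ± 8.86 CPM after 1 day, a log2 difference of 0.60 ± 0.09 (adjusted p = 0.000697), with overlap between the days. NPAS2 (chromosome 1, 134570730 to 134668760), the alternative partner of ARNTL, averaged 15.4 ± 1.51 CPM after 3 days and 10.2 ± 2.09 CPM after 1 day and rose, with a log2 difference of 0.61 ± 0.11 (adjusted p = 0.00264) with no overlap. CLOCK itself did not pass, at a log2 difference of 0.08.

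Among the repressors, PER2 (chromosome 9, 5654602 to 5695660), a period gene that is also induced by light, ran from 109 to 139 CPM (median 132) after 3 days and 151 to 207 CPM (median 198) after 1 day. All 7 libraries after 3 days were below all 7 after 1 day, and the log2 difference was −0.55 ± 0.08 (adjusted p = 0.000529). Within day 1 the PER2 values themselves were spread, with the lowest at 151 CPM still above the highest after 3 days at 139 CPM. PER3 (chromosome 21, 291189 to 310410), another period gene, averaged 40.01 ± 5.21 CPM after 3 days and 64.8 ± 17.5 CPM after 1 day and fell, with a log2 difference of −0.63 ± 0.14 (adjusted p = 0.0124). The PER3 ranges overlapped, and the size of its fall depended on which libraries after 1 day it was set against: −0.99 against the 4 with code numbers 1 to 4 (adjusted p = 6.11e-05) and −0.26 against the 3 with code numbers 12 to 14 (adjusted p = 0.143). Without day 3 replicate 4 it did not pass (adjusted p = 0.0588). CRY2, a cryptochrome repressor of the ARNTL complex, averaged 35.7 ± 2.16 CPM after 3 days and 46.9 ± 4.21 CPM after 1 day, did not overlap between days and fell, with a log2 difference of −0.39 ± 0.06 (adjusted p = 0.000913). CRY1, the other cryptochrome, averaged 37.6 ± 4.28 CPM after 3 days and 34.6 ± 4.09 CPM after 1 day; its log2 difference of 0.11 ± 0.08 did not pass (adjusted p = 0.504).

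NR1D2 (REV-ERBβ), which in mammals represses ARNTL transcription, averaged 94.1 ± 4.11 CPM after 3 days and 119 ± 10.5 CPM after 1 day with no overlap and fell, with a log2 difference of −0.33 ± 0.06 (adjusted p = 0.00234). NR1D2 did not pass with only libraries lacking W transcripts (limma, adjusted p = 0.111). BHLHE41 and CSNK1E were the other repressor genes that fell, both at means under 7 CPM. The 1 member of the repressor list that rose was NFIL3 (chromosome Z, 44356108 to 44370014), a repressor that binds the D-box element and opposes the PAR bZIP activators. NFIL3 ran from 40.4 to 70.01 CPM (median 44.98) after 3 days and 19.8 to 29.2 CPM (median 27.1) after 1 day, all 7 above all 7, with a log2 difference of 0.85 ± 0.12 (adjusted p = 0.000326). NFIL3 lies on the Z chromosome, and without the sex term its log2 difference was 0.94 (adjusted p = 0.000105).

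FBXL21 (chromosome 13, 15919405 to 15932600), an F-box protein that in mice targets cryptochromes, was not on either clock list and was among the 12 largest rises. It ran from 36.1 to 42.3 CPM (median 40.1) after 3 days and 19.1 to 28.9 CPM (median 24.6) after 1 day. The lowest library after 3 days stood above the highest after 1 day, and the log2 difference was 0.75 ± 0.07 (adjusted p = 2.86e-06). After 6 days the same direction against 1 day was seen in the means of ARNTL (47.4 CPM), NFIL3 (54.2 CPM), NPAS2 (16.4 CPM) and FBXL21 (34.5 CPM), and in those of PER3 (34.2 CPM) and NR1D2 (93.1 CPM). The means of PER2 (176 CPM) and CRY2 (46.04 CPM) after 6 days were nearer those after 1 day than those after 3 days. The day 6 values were not tested here.

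**Figure D1:**
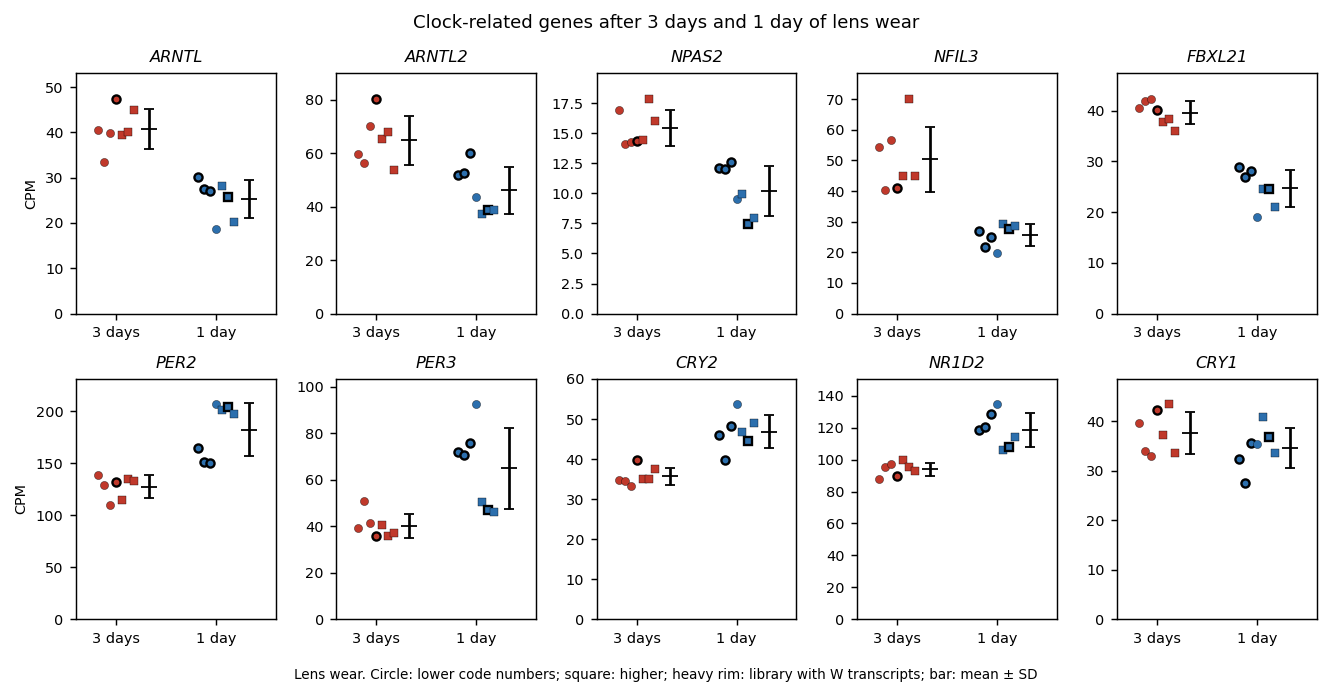
CPM of 10 clock-related genes in each library, 7 after 3 days of lens wear (red, left) and 7 after 1 day (blue, right); circles are libraries with the lower code numbers of their day, squares those with the higher, a heavy rim marks W transcripts, and bars give mean ± SD. ARNTL, NPAS2, NFIL3 and FBXL21 had every day 3 value above every day 1 value, PER2, CRY2 and NR1D2 the reverse, and CRY1 overlapped.

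Most cone genes that passed fell, while the rod genes that passed went both ways. Over all tested genes, 1.83% rose and 2.12% fell. Of 16 cone phototransduction genes tested, 8 fell and 1 rose, with a median log2 difference of −0.25. Of 11 rod genes, 3 rose and 1 fell, with a median of 0.16. The counts changed with the handling of W transcripts. Without the sex term the cone list had 5 falls and 1 rise (median −0.20) and the rod list 5 rises and no fall (median 0.15). With only libraries lacking W transcripts, a fit of fewer libraries, the cone list had 2 falls and no rise (median −0.16). In that fit the rod list had 3 rises and no fall (median 0.26). Against the day 1 libraries with code numbers 1 to 4 only, the rod list had 3 rises and 3 falls, with a median of 0.04, and against those with 12 to 14 only it had 2 rises and no fall, with a median of 0.25. Leaving out 1 library gave 6 to 9 cone falls, 2 to 4 rod rises and 0 to 3 rod falls, with no rod fall without day 3 replicate 4 and 3 without day 1 replicate 7. In whole retina, fewer cells of a type and less RNA per cell cannot be told apart.

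CNGA3 (chromosome 1, 133234443 to 133268782), the channel subunit that carries the light response of cones, ran from 25.8 to 43.8 CPM (median 31.9) after 3 days and 46.7 to 84.2 CPM (median 57.9) after 1 day. Every library after 3 days was below every library after 1 day, for a log2 difference of −0.87 ± 0.13 (adjusted p = 0.000464). GRK7 (chromosome 9, 10421447 to 10446325), the kinase that shuts off cone opsins, averaged 129 ± 17.9 CPM after 3 days and 191 ± 13.6 CPM after 1 day with no overlap, a log2 difference of −0.62 ± 0.08 (adjusted p = 0.000239). Both genes passed in all 27 alternatives. ARR3 (chromosome 4, 1239933 to 1254920), cone arrestin, ran from 76.6 to 213 CPM (median 148) after 3 days and 145 to 284 CPM (median 213) after 1 day with overlapping groups. Its log2 difference was −0.78 ± 0.15 (adjusted p = 0.00513), but −0.59 without the sex term (adjusted p = 0.0646).

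SLC24A4, a potassium-dependent sodium-calcium exchanger on the cone list, averaged 219 ± 32.3 CPM after 3 days and 308 ± 40.4 CPM after 1 day, a log2 difference of −0.55 ± 0.09 (adjusted p = 0.00102), and did not overlap. THRB, the thyroid hormone receptor that sets cone opsin identity, averaged 132 ± 6.19 CPM after 3 days and 165 ± 10.3 CPM after 1 day, also without overlap, and its log2 difference was −0.32 ± 0.05 (adjusted p = 0.00133). The other genes of the cone list that fell were RGS9BP, which anchors the complex that ends the light response, the cone channel subunit CNGB3 and OPN1SW, the violet opsin, listed at about 1 CPM or less in most libraries. RGS9, the binding partner of RGS9BP, was counted on the rod list. It did not pass, at a log2 difference of −0.26 (limma, adjusted p = 0.0752). GNGT2, the gamma subunit of cone transducin, was the 1 that rose. It averaged 360 ± 43.2 CPM after 3 days and 271 ± 21.4 CPM after 1 day with no overlap. Its log2 difference was 0.37 ± 0.08 (limma, adjusted p = 0.0108). Among the 7 genes of the list that did not pass were GNAT2 and PDE6C, both at a log2 difference of −0.05. The red opsin OPN1LW, the pigment of long-wavelength cones, was on neither side: it ran from 67.8 to 251 CPM (median 125) after 3 days and 68.4 to 109 CPM (median 87.8) after 1 day, and its log2 difference of 0.30 ± 0.24 did not pass (adjusted p = 0.533). The highest OPN1LW value after 3 days was more than the highest after 1 day, while the lowest values of both days were close.

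Of 5 photoreceptor guanylate cyclases and activators, 2 fell and none rose. GUCA1A (chromosome 26, 3184817 to 3189220), a calcium sensor that activates the cyclase when light lowers calcium, ran from 31.5 to 44.2 CPM (median 41.02) after 3 days and 52.9 to 84.3 CPM (median 75.4) after 1 day. The highest value after 3 days lay below the lowest after 1 day, and the log2 difference was −0.89 ± 0.11 (adjusted p = 8.75e-05) in a gene that passed in every alternative setting. The related sensor GUCA1C averaged 129.6 ± 26.95 CPM after 3 days and 164 ± 12.4 CPM after 1 day with overlap and fell, with a log2 difference of −0.44 ± 0.10 (adjusted p = 0.0153), but not without day 3 replicate 4 (adjusted p = 0.0807). After 6 days GUCA1A averaged 66.4 CPM and CNGA3 42.8 CPM.

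The 3 rod genes that rose encode parts of the rod light response. PDE6G (chromosome 18, 9137019 to 9143257), the inhibitory subunit of the rod phosphodiesterase, ran from 9.92 to 21.5 CPM (median 16.5) after 3 days and 6.32 to 11.4 CPM (median 8.895) after 1 day; 1 library after 3 days lay inside the day 1 range. Its log2 difference of 0.86 ± 0.20 was the largest rise by the naming rule (adjusted p = 0.0173), and it did not pass without day 1 replicate 4 or 7 (adjusted p up to 0.0616). SLC24A1 (chromosome 10, 18508304 to 18523280), the rod sodium-calcium-potassium exchanger, averaged 23.6 ± 4.12 CPM after 3 days and 13.1 ± 2.79 CPM after 1 day with no overlap, a log2 difference of 0.83 ± 0.16 (adjusted p = 0.00372). CNGA1, the rod channel subunit, averaged 19.2 ± 2.45 CPM after 3 days and 12.8 ± 2.797 CPM after 1 day, a log2 difference of 0.59 ± 0.13 (adjusted p = 0.0101). SLC24A1 and CNGA1 passed in all 27 alternatives.

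The 1 rod gene that fell was PDE6B (chromosome Z, 53573478 to 53602211), a catalytic subunit of the rod phosphodiesterase. It ran from 24.6 to 58.8 CPM (median 50.03) after 3 days and 53.6 to 78.9 CPM (median 58.9) after 1 day, and the lowest value belonged to replicate 4, the only library with W transcripts after 3 days. PDE6B was lower in libraries with W transcripts than in those without, with a log2 difference of −0.39 (adjusted p = 0.0337). The day difference was −0.57 ± 0.12 (adjusted p = 0.0116); it was −0.40 without the sex term (adjusted p = 0.142) and did not pass when that replicate was left out (adjusted p = 0.0568).

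**Figure D2:**
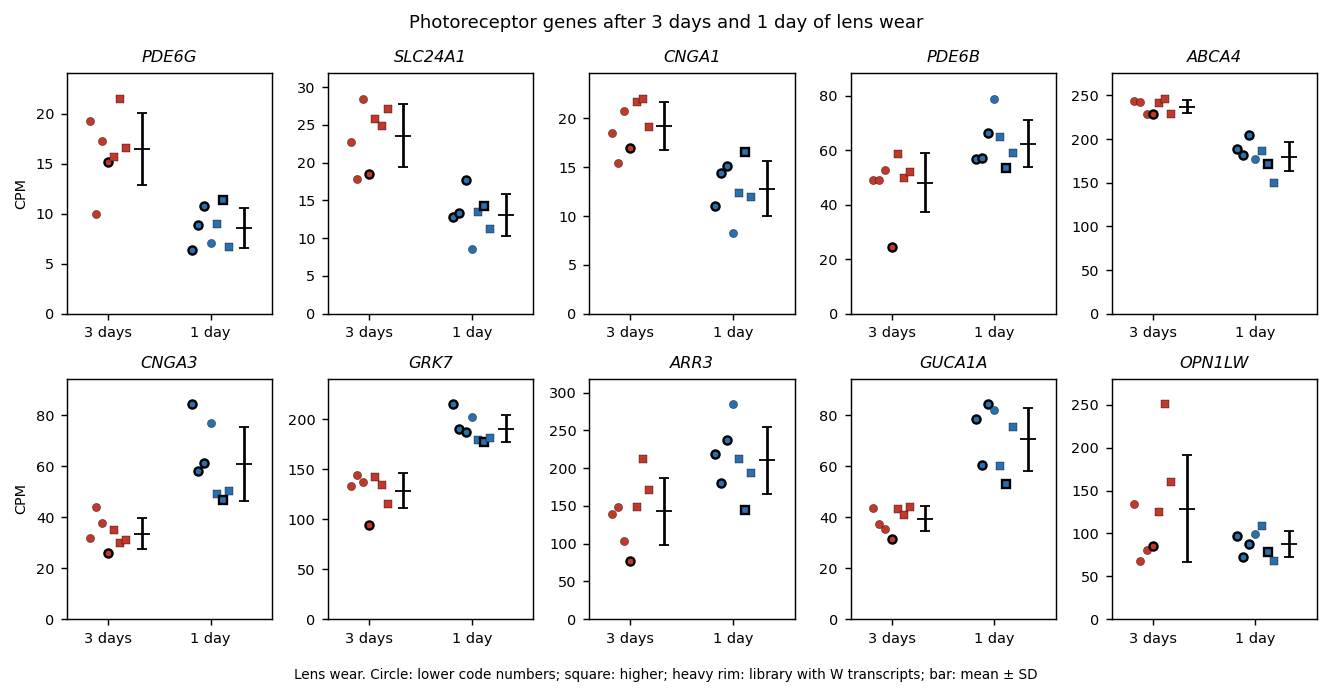
CPM of 10 photoreceptor genes in each library after 3 days (red, left) and 1 day (blue, right) of lens wear, with symbols as for the clock genes and bars of mean ± SD. SLC24A1 and ABCA4 lay wholly above, and CNGA3, GRK7 and GUCA1A wholly below, their day 1 values; OPN1LW overlapped, and the lowest PDE6B value was the 1 day 3 library with W transcripts.

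Outer segment and structural genes of photoreceptors, 18 tested, had 3 rises and 2 falls, with a median log2 difference of 0.01. Against the day 1 code numbers 1 to 4 only there were 5 rises and 5 falls, and against 12 to 14 only 3 rises and 1 fall. ABCA4 (chromosome 8, 14048452 to 14135936), the flippase that clears retinal from disc membranes, averaged 237 ± 7.67 CPM after 3 days and 179.9 ± 16.8 CPM after 1 day, and all 7 values after 3 days were above all 7 after 1 day. Its log2 difference was 0.43 ± 0.06 (adjusted p = 0.000326). TULP1, needed for protein transport to the outer segment, averaged 57.4 ± 5.34 CPM after 3 days and 42.6 ± 3.33 CPM after 1 day, also without overlap, at a log2 difference of 0.40 ± 0.08 (adjusted p = 0.00669). IMPG2, a proteoglycan of the matrix between photoreceptors, averaged 173 ± 25.8 CPM after 3 days and 207 ± 11.9 CPM after 1 day and fell, with a log2 difference of −0.34 ± 0.08 (adjusted p = 0.0117); neither it nor IMPG1, the other gene that fell, passed without the sex term, and IMPG2 did not pass without day 3 replicate 4 (adjusted p = 0.0675).

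The largest fall by the naming rule was in RBP4 (chromosome Z, 53612243 to 53617574), the carrier of retinol, which ran from 51.05 to 95.2 CPM (median 70.03) after 3 days and 144 to 268 CPM (median 219.9) after 1 day. No library overlapped, and the log2 difference was −1.41 ± 0.16 (adjusted p = 3.98e-05). RBP4 passed in all 27 alternatives, with log2 differences of −1.69 against the day 1 libraries with code numbers 1 to 4 and −1.15 against those with 12 to 14. After 6 days it averaged 127 CPM. Among the 13 retinoid carrier and visual cycle genes tested, RBP4 was the only one that fell and ABCA4 the only one that rose; the list median was −0.11. None of 10 genes for retinoic acid synthesis, breakdown and reception passed (limma), and 3 had an unadjusted p under 0.05.

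Immediate early genes, which neurons transcribe within minutes of activity, had 2 falls and no rise among 12 tested, with a median log2 difference of −0.23. EGR1 (chromosome 13, 18949952 to 18952755), known in chick as ZENK and, in glucagon-containing amacrine cells, as an early marker of defocus sign, ran from 1.54 to 7.47 CPM (median 3.44) after 3 days and 6.81 to 15.1 CPM (median 9.87) after 1 day. All 7 libraries after 3 days were below the day 1 mean, though the ranges overlapped, and the log2 difference was −1.20 ± 0.25 (adjusted p = 0.00751). DUSP6, the phosphatase that ends ERK signalling, averaged 14.7 ± 1.88 CPM after 3 days and 18.03 ± 1.603 CPM after 1 day and fell, with a log2 difference of −0.35 ± 0.08 (adjusted p = 0.0226); it did not pass without the sex term (adjusted p = 0.0622), without day 1 replicate 5 or without day 3 replicate 4.

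Synaptic and secreted neuronal proteins, 15 tested, had 3 falls and no rise, with a median of −0.14. CPLX4 (chromosome Z, 927301 to 942878), a complexin of ribbon synapses, averaged 62.8 ± 7.42 CPM after 3 days and 80.3 ± 5.23 CPM after 1 day with no overlap and a log2 difference of −0.44 ± 0.07 (adjusted p = 0.000549). NPTX2, a secreted pentraxin that clusters AMPA receptors, ran from 31.4 to 37.1 CPM (median 33.1) after 3 days and 43.3 to 75.1 CPM (median 51.01) after 1 day, with all values after 3 days below those after 1 day. Its log2 difference was −0.53 ± 0.11 (adjusted p = 0.00664). The related NPTX1 was low, at 1.76 ± 1.07 CPM after 3 days and 3.47 ± 1.38 CPM after 1 day, and its log2 difference of −0.89 ± 0.21 (adjusted p = 0.0162) did not pass without the sex term (adjusted p = 0.0564) or without replicate 4 of either day.

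Calls among transmitter and peptide genes are given by list, where 3.96% of all tested genes were called. TPH1 (chromosome 5, 12654570 to 12667396), the enzyme that starts serotonin and melatonin synthesis in photoreceptors, ran from 15.3 to 23.3 CPM (median 20.97) after 3 days and 9.31 to 13.97 CPM (median 9.81) after 1 day. All 7 libraries after 3 days were above all 7 after 1 day, with a log2 difference of 0.79 ± 0.12 (adjusted p = 0.000382). TPH1 was the 1 gene of 14 in the serotonin and melatonin list that passed. AANAT, the rhythmic enzyme of melatonin synthesis, averaged 2.42 ± 0.492 CPM after 3 days and 2.21 ± 0.603 CPM after 1 day and did not pass, at a log2 difference of −0.01 ± 0.13. DRD4, a dopamine receptor of photoreceptors, was the 1 of 8 dopamine genes that passed: it averaged 22.99 ± 4.91 CPM after 3 days and 28.9 ± 2.15 CPM after 1 day and fell, with a log2 difference of −0.44 ± 0.10 (adjusted p = 0.0151), which did not hold without the sex term (adjusted p = 0.0867) or without day 3 replicate 4 (adjusted p = 0.0801).

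None of 8 neuropeptide genes passed (limma), with 1 at an unadjusted p under 0.05. GCG, which encodes glucagon, averaged 11.2 ± 2.17 CPM after 3 days and 12.3 ± 0.841 CPM after 1 day, a log2 difference of −0.11 ± 0.10 (adjusted p = 0.606). TH, the rate-limiting enzyme of dopamine synthesis, and VIP, a peptide of amacrine cells, stayed under the mean of 1 CPM needed for testing, with means of 0.387 and 0.563 CPM after 3 days and 0.349 and 0.444 CPM after 1 day in that order. Of 18 BMP and TGF-beta genes, TGFB3, a ligand of the TGF-beta family, was the only one that passed: it averaged 9.703 ± 1.17 CPM after 3 days and 11.8 ± 0.493 CPM after 1 day and fell, with a log2 difference of −0.32 ± 0.07 (adjusted p = 0.012), but not without day 3 replicate 4 (adjusted p = 0.0624).

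Of 16 cholesterol synthesis genes tested, 5 rose and none fell. All 16 had a log2 difference above 0, from 0.04 to 0.54 with a median of 0.24. FDFT1 (chromosome 3, 107359160 to 107370241), squalene synthase, ran from 27.9 to 38.5 CPM (median 30.5) after 3 days and 18.7 to 25.6 CPM (median 20.5) after 1 day. The lowest library after 3 days was above the highest after 1 day, and the log2 difference was 0.54 ± 0.08 (adjusted p = 0.000549). IDI1, the isomerase of isopentenyl diphosphate, averaged 34.3 ± 2.79 CPM after 3 days and 24.9 ± 5.203 CPM after 1 day with no overlap, a log2 difference of 0.50 ± 0.11 (adjusted p = 0.0115). FDFT1 and IDI1 passed in every alternative.

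HMGCS1 (chromosome Z, 13648499 to 13665261), the synthase that feeds the mevalonate pathway, averaged 108 ± 18.4 CPM after 3 days and 75.2 ± 14.998 CPM after 1 day and rose, with a log2 difference of 0.54 ± 0.12 (adjusted p = 0.0139). Without day 1 replicate 4 HMGCS1 did not pass (adjusted p = 0.058). LSS, lanosterol synthase, averaged 6.42 ± 0.994 CPM after 3 days and 4.696 ± 1.31 CPM after 1 day, a log2 difference of 0.45 ± 0.12 (adjusted p = 0.0419), and did not pass in 8 of the 14 settings that leave out 1 library. MSMO1, the methylsterol oxidase, was the remaining gene that rose. Against the day 1 libraries with code numbers 1 to 4 only, 2 of the 16 passed, and against those with 12 to 14 only, 8 passed. Leaving out 1 library gave 2 to 5, the lowest without day 1 replicate 4.

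Sterol sensing and transport genes, 13 tested, had 2 rises and no fall. ABCG1 (chromosome 1, 110622734 to 110682579), an exporter of cholesterol to lipoproteins, averaged 291 ± 18.99 CPM after 3 days and 222 ± 21.6 CPM after 1 day, with all values after 3 days above all after 1 day and a log2 difference of 0.44 ± 0.06 (adjusted p = 0.000436). STARD4 (chromosome Z, 46595146 to 46603611), a carrier of cholesterol between membranes, averaged 75.5 ± 16.3 CPM after 3 days and 46.03 ± 9.16 CPM after 1 day and rose, with a log2 difference of 0.38 ± 0.09 (adjusted p = 0.0149). STARD4 was lower in libraries with W transcripts than in those without, with a log2 difference of −0.71 (adjusted p = 3.42e-07); without the sex term its day difference was 0.69 (adjusted p = 0.0378), and with it the gene did not pass without day 1 replicate 4 or 7.

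Of 73 cytosolic ribosomal protein genes tested, 10 rose and none fell. The differences were small, with 69 of the 73 above 0 and a median log2 difference of 0.20. RPL5, a protein of the large subunit, averaged 99.1 ± 4.47 CPM after 3 days and 83.2 ± 6.25 CPM after 1 day and had a log2 difference of 0.27 ± 0.06 (adjusted p = 0.0101). RPL32, also of the large subunit, averaged 45.2 ± 2.49 CPM after 3 days and 37.005 ± 2.0995 CPM after 1 day, a log2 difference of 0.26 ± 0.06 (adjusted p = 0.0116). RPL5 and RPL32 did not overlap between days. The number that passed was 20 without the sex term (median 0.23) and 2 with only the 14 libraries of these days in the fit (median 0.19). With only libraries lacking W transcripts, a fit of fewer libraries, none passed while the median was 0.20. Against the code numbers 12 to 14 only none passed (median 0.14), and against 1 to 4 only 20 passed (median 0.26). Leaving out 1 library gave 2 to 13, with 2 without day 1 replicate 4 and 6 without day 3 replicate 4. Of 67 genes of the respiratory chain and ATP synthase, none passed (limma), and 7 had an unadjusted p under 0.05.

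Glycolysis and lactate transport genes, 23 tested, had 1 rise and 4 falls, with a median log2 difference of −0.0039. LDHA (chromosome 5, 12754120 to 12760010), the lactate dehydrogenase subunit that favours lactate production, ran from 799 to 922 CPM (median 834) after 3 days and 653 to 738 CPM (median 685) after 1 day. Its values did not overlap and the log2 difference was 0.31 ± 0.07 (adjusted p = 0.0198), or an adjusted p of 0.0601 without day 3 replicate 4. LDHB, the subunit that favours pyruvate, averaged 129 ± 10.8 CPM after 3 days and 157 ± 17.7 CPM after 1 day and fell, with a log2 difference of −0.32 ± 0.09 (adjusted p = 0.0361), which did not pass in 8 of the 14 settings that leave out 1 library. SLC16A1 (chromosome 26, 3611402 to 3628788), the lactate transporter MCT1, averaged 70.5 ± 6.57 CPM after 3 days and 99.6 ± 14.5 CPM after 1 day with no overlap, a log2 difference of −0.59 ± 0.09 (adjusted p = 0.000617). HK2, a hexokinase of photoreceptors, averaged 91.1 ± 20.7 CPM after 3 days and 127 ± 27.9 CPM after 1 day and fell, with a log2 difference of −0.57 ± 0.14 (adjusted p = 0.0188; 0.0842 without day 1 replicate 4), and the glucose transporter gene SLC2A1 fell as well. Without the sex term the list had 1 rise and 1 fall, and HK2 (adjusted p = 0.0519) and LDHB (adjusted p = 0.06) did not pass. Leaving out 1 library gave 2 to 5 falls, and with only libraries lacking W transcripts, a fit of fewer libraries, none of the 23 passed.

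Of 12 hypoxia response genes, NDRG1, a stress-responsive gene of differentiating cells, was the 1 that passed: it averaged 144 ± 14.4 CPM after 3 days and 105 ± 22.04 CPM after 1 day and rose, with a log2 difference of 0.57 ± 0.10 (adjusted p = 0.00112). Heat shock and unfolded protein response genes had no call among 28 (limma), although 12 had an unadjusted p under 0.05 and the median was −0.14. The result depended on the day 1 libraries: against the code numbers 12 to 14 only, 11 of the 28 fell, and against 1 to 4 only, 2 fell. HSP90AA1, a cytosolic chaperone, ran from 229 to 358 CPM (median 268) after 3 days and 214 to 599.7 CPM (median 300.2) after 1 day. Its log2 difference was −0.42 ± 0.21 (adjusted p = 0.290), and the sign turned with the day 1 libraries used: it was 0.13 against the code numbers 1 to 4 only (adjusted p = 0.682) and −0.96 against 12 to 14 only (adjusted p = 0.00176). The code sets of day 1 themselves differed by 1.07, higher numbers minus lower.

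Genes of the glucocorticoid and thyroid hormone response, 13 tested, had 3 falls and no rise. SGK1 (chromosome 3, 56205660 to 56278753), a kinase gene that glucocorticoids induce in mammals, ran from 26.7 to 35.4 CPM (median 32.1) after 3 days and 41.8 to 59.9 CPM (median 51.2) after 1 day. All 7 libraries after 3 days were below all 7 after 1 day, and the log2 difference was −0.73 ± 0.12 (adjusted p = 0.00106). KLF15, a transcription factor that glucocorticoids induce in mammals, averaged 4.37 ± 0.599 CPM after 3 days and 6.45 ± 0.832 CPM after 1 day with no overlap, a log2 difference of −0.46 ± 0.10 (adjusted p = 0.0113). The third was THRB, given with the cone genes. After 6 days SGK1 averaged 51.7 CPM.

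**Figure D3:**
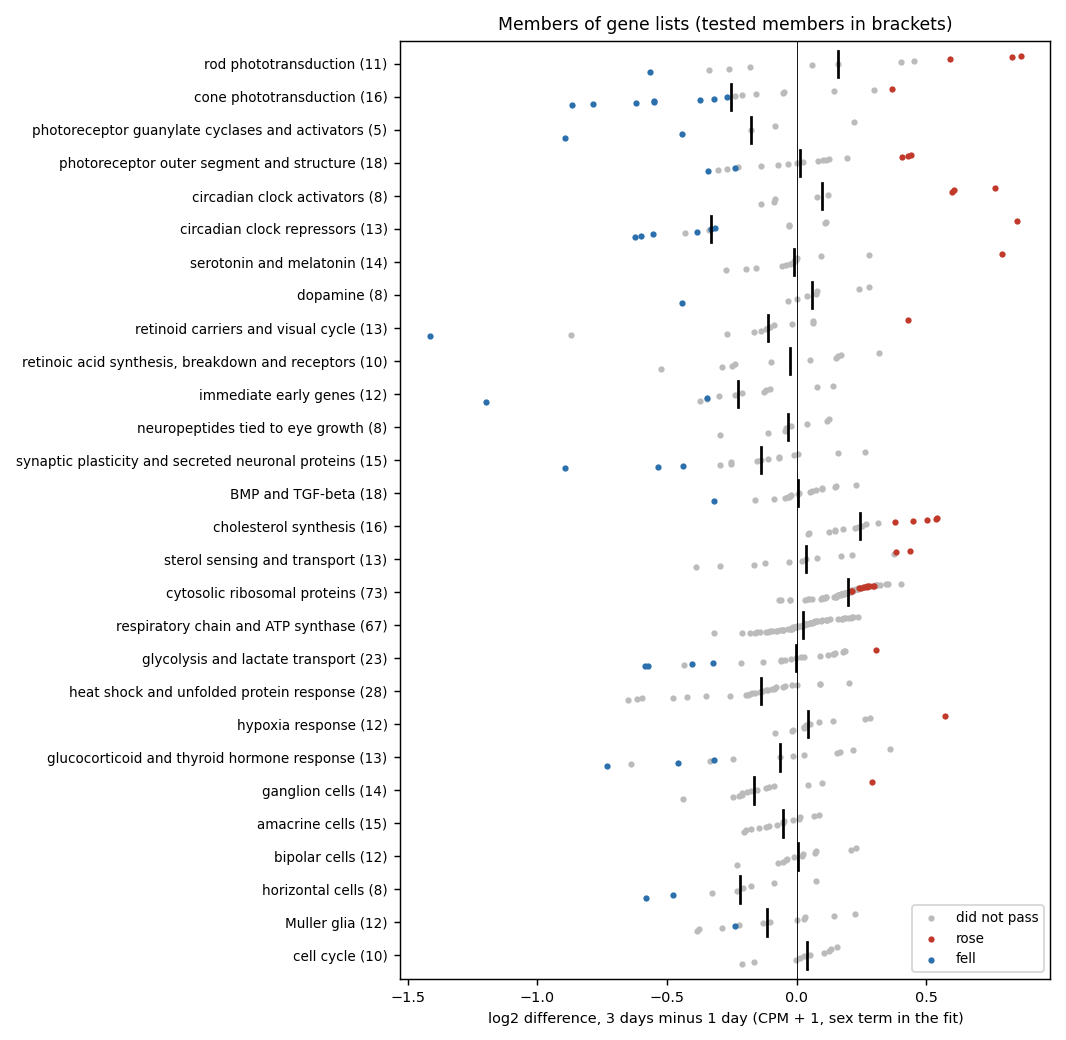
Log2 difference, 3 days minus 1 day, of each tested member of the gene lists with 5 or more members; red members rose, blue fell and grey did not pass, and the black bar is the list median. All 16 cholesterol synthesis genes and 69 of 73 ribosomal protein genes lie right of 0, while the cone and clock repressor medians lie left of it.

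The remaining genes among the 12 largest rises and 12 largest falls came from no list described above, and all passed. MICAL2, an oxidoreductase that takes actin filaments apart, averaged 28.7 ± 4.48 CPM after 3 days and 15.8 ± 4.67 CPM after 1 day, a log2 difference of 0.85 ± 0.16 (adjusted p = 0.00357). WDCP averaged 19.7 ± 3.07 CPM after 3 days and 11.4 ± 2.41 CPM after 1 day, a log2 difference of 0.78 ± 0.11 (adjusted p = 0.000382). G0S2 (chromosome 26, 3140579 to 3141465), an inhibitor of the fat-cell triglyceride lipase, averaged 18.6 ± 3.89 CPM after 3 days and 10.9 ± 0.874 CPM after 1 day, and STXBP4 (chromosome 18, 5836744 to 5893006), a syntaxin-binding protein, averaged 106 ± 14.4 CPM after 3 days and 68.3 ± 6.82 CPM after 1 day. The log2 differences of G0S2 and STXBP4 were 0.76 ± 0.12 and 0.69 ± 0.08, and neither gene overlapped between days. The palmitoyltransferase gene ZDHHC15 averaged 65.6 ± 10.6 CPM after 3 days and 43.4 ± 4.73 CPM after 1 day, and AQP9, a channel for water and glycerol, averaged 12.1 ± 2.87 CPM after 3 days and 7.99 ± 2.52 CPM after 1 day. AQP9 did not pass in 8 of the 14 settings that leave out 1 library. The values of MICAL2, WDCP, ZDHHC15 and AQP9 overlapped between days.

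On the falling side, SLC25A25 (chromosome 17, 5166905 to 5192132), a calcium-dependent mitochondrial carrier of ATP-Mg and phosphate, ran from 16.6 to 21.4 CPM (median 18.2) after 3 days and 27.4 to 38.8 CPM (median 30.7) after 1 day. Its groups did not overlap, and with a log2 difference of −0.81 ± 0.08 its adjusted p of 5.73e-06 was the smallest among the fallen genes named here. CEP164 (chromosome 24, 5274922 to 5318633), a protein of the distal appendages that anchor cilia, averaged 127 ± 18.1 CPM after 3 days and 195 ± 15.4 CPM after 1 day, also with no overlap, a log2 difference of −0.69 ± 0.09 (adjusted p = 0.000186). MACF1, which links actin to microtubules, averaged 54.3 ± 7.81 CPM after 3 days and 79.5 ± 17.2 CPM after 1 day. The days were narrowly apart, with a highest value of 64.95 CPM after 3 days and a lowest of 65.6 CPM after 1 day. The log2 difference of MACF1 was −0.61 ± 0.13. It did not pass against the code numbers 12 to 14 only (limma, adjusted p = 0.109) or with only libraries lacking W transcripts (adjusted p = 0.123). ITPRIP, a modulator of the inositol trisphosphate receptor, averaged 7.08 ± 2.68 CPM after 3 days and 13.1 ± 2.53 CPM after 1 day, and GLB1L2, a relative of beta-galactosidase, averaged 34.1 ± 5.71 CPM after 3 days and 51.5 ± 9.86 CPM after 1 day. Their log2 differences were −0.96 ± 0.19 and −0.67 ± 0.12, with overlap in both.

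Markers of the retinal cell classes follow list by list, beside a share of 3.96% called over all tested genes. None of 15 amacrine and 12 bipolar markers passed (limma), with 2 of each at an unadjusted p under 0.05. Of 14 ganglion cell markers, OPN4, the photopigment melanopsin, was the only one that passed, averaging 118 ± 8.703 CPM after 3 days and 98.01 ± 9.77 CPM after 1 day (log2 difference 0.29 ± 0.08, adjusted p = 0.0438). The ganglion cell list as a whole had 3 of 14 log2 differences above 0, a median of −0.16 and 5 members at an unadjusted p under 0.05. Of 8 horizontal cell markers, 2 fell: CALB1, the calcium buffer calbindin, averaged 31.9 ± 5.55 CPM after 3 days and 45.5 ± 5.18 CPM after 1 day, a log2 difference of −0.58 ± 0.10 (adjusted p = 0.00178), and SEPT4, a septin, averaged 7.004 ± 1.01 CPM after 3 days and 9.84 ± 2.397 CPM after 1 day. Of 12 Müller glia markers, VIM, the intermediate filament vimentin, was the only one that fell, averaging 122 ± 7.06 CPM after 3 days and 139 ± 14.1 CPM after 1 day. OPN4, SEPT4 and VIM did not pass in 9, 8 and 6 of the 14 settings that leave out 1 library, in that order. Of lists for other cell types, none of the 4 tested genes of pigment epithelium, 4 of lens and cornea and 3 of vessels and pecten passed (limma). None passed either among 3 of microglia and immune cells, 1 of sclera and choroid and 10 of the cell cycle. In these lists, 1 gene of the pigment epithelium and 1 of the cell cycle had an unadjusted p under 0.05 (limma). The pigment epithelium list included TRPM1, which was also on the bipolar list and among the retinal markers. TRPM1 ran from 151 to 178 CPM after 3 days and 160 to 186 CPM after 1 day.

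The sex term changed which genes were called. Without it 366 genes differed between the days, 290 of them shared with the 438. On the Z chromosome, which male birds carry as a pair and females singly, 14 of 556 tested genes rose and 15 fell with the term, whereas 16 rose and 4 fell without it. The median log2 difference of the Z genes was 0.01 with the term and 0.19 without, against −0.0013 and −0.0051 on the numbered autosomes. Of all tested genes, 596 differed with W transcripts, and 37 of those were among the 438.

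**Figure D4:**
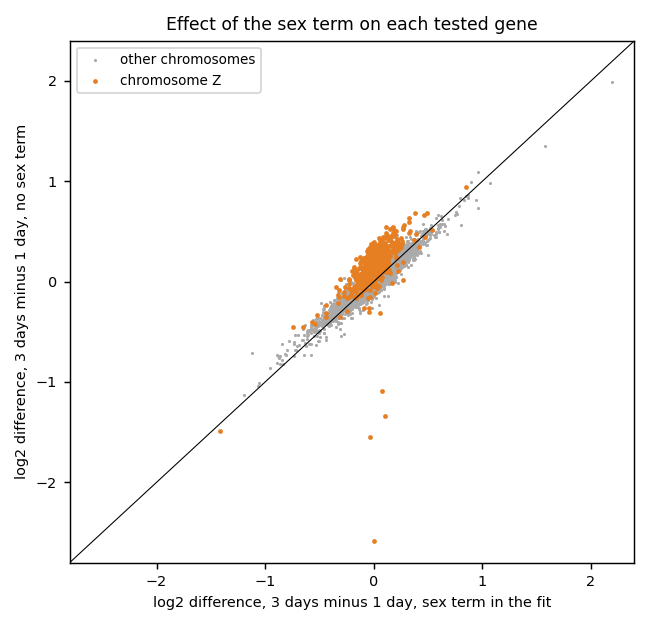
Log2 difference, 3 days minus 1 day, of each tested gene with the sex term (x axis) and without it (y axis), Z genes in orange and genes on other chromosomes in grey; W genes are left out. Most Z genes lie above the diagonal line of equal values, and their medians are 0.01 with the term and 0.19 without; 4 Z genes without a gene symbol lie far below the line.

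The 7 libraries after 1 day fall into code numbers 1 to 4 and 12 to 14, whose meaning is not given, and these sets differed from each other. With W presence in the fit, 1049 genes (9.47%) differed between them at an adjusted p under 0.05 (limma), and 34 of the 438 genes were among them. Set against both code sets separately, 122 of the genes passed in the same direction. RBP4 differed between the sets by a log2 difference of −0.56, higher numbers minus lower (adjusted p = 0.0258), CNGA3 by −0.56 (adjusted p = 0.0438) and PER3 by −0.76 (adjusted p = 0.0125). For RBP4 and CNGA3 the fall after 3 days passed against either set. With the lower or higher code numbers of each day as a further term of the fit, 462 genes passed (limma), 418 of them among the 438. The higher set held 3 of 7 libraries on both days, so this term could move the day difference little. The overlap of the calls therefore does not test the part of the code sets. Beyond these values, the part of the code sets in the day differences was not tested.

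**Figure D5:**
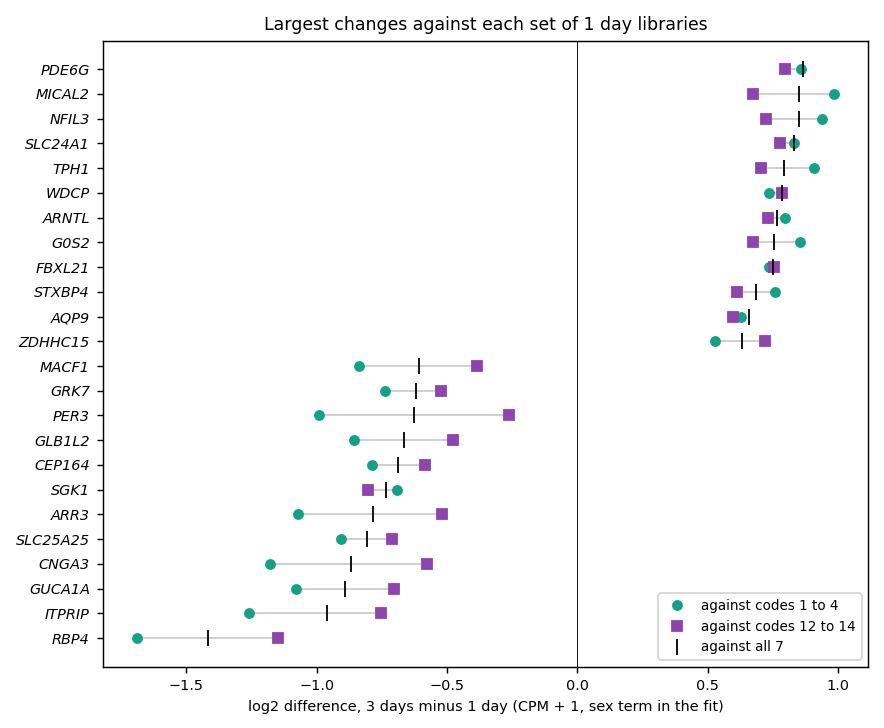
Log2 difference, 3 days minus 1 day, of the 12 largest rises and 12 largest falls, against the 4 day 1 libraries with code numbers 1 to 4 (circles), the 3 with 12 to 14 (squares) and all 7 (black ticks). The 24 were picked by their difference against all 7, so the sign they keep against both sets is no separate support. The gap between the sets is widest for PER3, at −0.99 and −0.26. PDE6G, MICAL2, AQP9, ARR3, PER3 and MACF1 did not pass against 12 to 14 only (limma). AQP9 and ZDHHC15 did not pass against 1 to 4 only.

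For 14 genes tested singly, an exact two-sided permutation test over the 3432 ways to assign 14 libraries to the days, with no sex term, gave p = 0.000583 for RBP4, NFIL3, PER2 and TPH1. That is the smallest p the test can give. The 14 genes were picked with earlier results of these data known, so these p-values are no separate support. They are not adjusted over the 14 genes. EGR1 had p = 0.00117, PER3 p = 0.00233 and HMGCS1 p = 0.00408 in the same exact test. HINTW had p = 0.039 in the exact test, or 0.0683 after Benjamini-Hochberg adjustment over the 14 genes. It was above 10 CPM in 1 of 7 libraries after 3 days and 4 of 7 after 1 day. CRY1, AANAT, GCG, OPN1LW and HSP90AA1 had exact p-values from 0.118 to 0.438.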

How the data were processed

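RNA from chicken retinas kept in RNAlater was extracted and sequenced as stranded total RNA after ribosomal RNA depletion, per the labels' protocols. STAR, Partek and the build GRCg6a are named in the submitters' processing notes, with no versions. The deposited table holds values in CPM (read counts scaled per library) with 0.0001 added, per the table's lowest value, for 18631 genes in 21 libraries. Low values stepped in units of 1 read, from which the depth was estimated.

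The 0.0001 was subtracted, genes averaging 1 CPM or more over the 21 libraries were kept (11072, holding 99.5% of the listed CPM), and log2(CPM + 1) was fitted with limma 3.58.1 in R 4.3.3. All 21 libraries entered 1 fit with a mean per day and HINTW above 10 CPM as the sex term (17 residual degrees of freedom). P-values were adjusted by Benjamini-Hochberg over all genes tested, and the scripts were tested on simulated data. Genes were listed by name in 36 lists. Members and lists were chosen with earlier results of these data known. Named genes are the 12 largest rises and 12 largest falls with a symbol and a mean of at least 10 CPM, up to 4 members per list with the lowest adjusted p, and a set of named genes; some named genes are not reported here. Chromosome names come from a RefSeq table of another assembly by majority of gene symbols, and positions are GRCg6a as deposited, with the base of the start not stated. The 27 alternatives changed the pseudocount, filter, scaling, sex term, libraries or limma settings, added the code number set as a term, or left out 1 library.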

Additional observations from a re-analysis of the deposited data

Results flagged for a closer look

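In 11 of 138 groups of 7 libraries, the highest or lowest library stood apart from the rest by more than Dixon's 95% critical share of the range; chance gives about 1 in 20. After 3 days, replicate 4, the only library of that day with W transcripts, was low in PDE6B at 24.6 CPM and STARD4 at 40.97 CPM, both genes of the Z chromosome. The high values after 3 days were PER3 at 50.7 CPM in replicate 2, IDI1 at 40.05 CPM in replicate 3 and HK2 at 134.8 CPM in replicate 7. After 1 day, replicate 4 was high in 4 genes: MACF1 at 115.7 CPM, SLC24A4 at 391.4 CPM, NPTX1 at 6.56 CPM and AANAT at 3.39 CPM. The other high value after 1 day was TPH1 at 13.97 CPM in replicate 5. TGFB3 was low after 1 day, at 10.79 CPM in replicate 6.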

How the results depend on the processing

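No named gene that passed changed sign in any of the 27 alternatives, and signs were compared for the named genes only. Of the 438 genes, 52 passed in all alternatives. Of the 65 named genes that passed, 44 also passed in all 14 settings that left out 1 library and 25 in all alternatives. The setting with a mean of 5 CPM or more tested 7426 genes, so genes under 5 CPM could not pass in all alternatives. The count of 438 (203 up, 235 down) became 239 (114 up, 125 down) with only the 14 libraries of these days in the fit and 127 (82 up, 45 down, 64.6% up) with only libraries lacking W transcripts; fewer samples entered both. Against day 1 code numbers 1 to 4 only it was 922 (699 down), and against 12 to 14 only 588 (348 up); the cause was not tested. Leaving out 1 library gave 242 to 506 genes, 108 to 195 up and 134 to 322 down, the lowest without day 1 replicate 4. Without day 1 replicate 7 the up-share was 34%, against 46.3%. Without day 3 replicate 4, the only library of that day with W transcripts, 294 genes passed, 150 up and 144 down. In that fit 13 named genes no longer passed, the most for any library left out. The median correlation of that library with the others of its day was 0.9795, against 0.9863 to 0.9907 for the others. It also had the fewest detected genes of the 14 libraries, 16553. The other 9 alternatives gave 366 to 544 genes. No paired analysis was possible because the replicate numbers were given in accession order and the labels pair no libraries across days. Estimated depth of 30.9 to 49.3 M reads limits the lowest genes most, such as NPTX1 and AANAT. Of these reads, an estimated 9.94 to 15.3 M fell in listed genes.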
